A study of Homo sapiens with 27 samples.

Results

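The comparison described here set the neuroblastoma line SK-N-SH against the pancreatic neuroendocrine tumour line BON-1, each transfected with the empty plasmid and no MAML3 sequence. Its members were the 3 SK-N-SH vector libraries and the 3 BON-1 vector libraries, 6 of the 27 libraries of the series, chosen by their labels, and all genes of the table were read. The medium was EMEM for SK-N-SH and DMEM/F12 for BON-1, each with 10% fetal bovine serum. Cells of either line received the pCMV6-AC vector with a Lipofectamine reagent and were lysed in Trizol on day 3. RNA was made into libraries with a TruSeq mRNA kit. Further groups serve for comparison: the same lines with full-length MAML3 (FL), the same lines with MAML3 lacking its first exon (dEx1), and a second pancreatic neuroendocrine line, QGP-1, with the vector. The medium of QGP-1 was RPMI, so it differed from BON-1 in medium as well as in line. No group was left untransfected, so the levels are those of cells that had taken up a plasmid and a lipid reagent, and the resting state cannot be told apart from a response to them. Each tumour type is represented by a single cell line, and the lines were grown in different media, so tumour type, cell line and medium cannot be told apart.

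Neuroblastoma arises from the sympathoadrenal branch of the neural crest. Its cells are known to take an adrenergic state, held by factors such as HAND2 and GATA3, or a mesenchymal state, marked by factors such as PRRX1 and by matrix genes, and SK-N-SH is a line known to hold both kinds of cell. Pancreatic neuroendocrine cells arise from gut endoderm instead. They keep endodermal factors of the FOXA and HNF families and epithelial junctions, and they add a secretory programme under INSM1, NEUROD1 and related factors, with chromogranins, peptide hormones and dense-core vesicles. Cells of either origin can store monoamines and hormones in such vesicles, which is why tumours of both origins are grouped as neuroendocrine.

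The total estimated count per library was 85367579 to 97874108 units in SK-N-SH vector and 73026244 to 87892041 units in BON-1 vector. Of the markers read for the labelled lines, HAND2, GATA3 and DBH were on the SK-N-SH side, and CHGA, INSM1 and EPCAM on the BON-1 side. Other markers did not follow the labels. TH was near 0 in SK-N-SH, and ISL1, read as a pancreatic endocrine marker, was higher in SK-N-SH. The endocrine marker PAX6 and the mesenchymal marker SNAI2 did not pass, and SCG2 overlapped between the lines. Levels below are in CPM, counts scaled to the size of each library, after TMM scaling, so a level compares libraries for a gene and not genes with each other. On principal components of the 6 libraries, the first component held 91% of the variance and parted the lines. The second, with 3.38%, set BON-1 vector 1 apart at 78.0, against -33.0 and -46.7 for BON-1 vector 2 and 3. SK-N-SH vector 1 and 2 were more alike than any other pair within a line, with a median absolute difference of 0.09 on the log2 scale between them, while SK-N-SH vector 3 differed from them by 0.27 and 0.28. If each fragment is worth 5 units, SK-N-SH vector 1 and 2 still differed by more than counting noise. They were kept as separate samples. The sample titles give these as numbered replicates, and the p-values measure only the spread between these samples.

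Of 15130 genes tested with edgeR's quasi-likelihood test and Benjamini-Hochberg adjustment at a threshold of 0.05, 8332 (55.1%) passed between the lines, 4165 of them higher in SK-N-SH (27.5%) and 4167 lower (27.5%). A test for a change beyond 2-fold was passed by 4821 genes (31.9%), 2309 higher (15.3%) and 2512 lower (16.6%). These shares are the background for each list below, since a list with about 28% of its members higher and 28% lower is no different from the table as a whole. The median fold change of all tested genes was 0.00 on the log2 scale. The groups did not overlap in 66.4% of tested genes. Of 5972 genes with at least 50 CPM in either line, 73 were at 0 in all 3 SK-N-SH libraries and 55 at 0 in all 3 BON-1 libraries. For such genes a fitted fold change is arbitrary, and the text gives a lower bound against 15 units per library, which stands for 3 fragments if each is worth 5 units. A list is described by the median of its fitted log2 fold changes and by its floored median, in which levels under that minimum are set to it, and the floored median of all tested genes was -0.04.

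The same contrast in FL and dEx1 libraries uses other samples of the same lines. There 10343 of 15312 genes passed with FL (67.5%), 33.4% higher and 34.1% lower, and 10471 of 15176 with dEx1 (69.0%), 33.8% higher and 35.2% lower. The test for a change beyond 2-fold was passed by 36.3% of genes with FL and 35.5% with dEx1. Of the 8126 genes called with vector and tested in both, 7197 passed in the same direction in FL and in dEx1, and 14 passed in the opposite direction in at least 1 of them. The labels do not say whether same-numbered libraries of a line share a culture. Some genes low in SK-N-SH replicate 3 were low in it in all 3 transfections, as given below, so the repeat may not be independent. With SK-N-SH vector 3 and BON-1 vector 1 both left out, 9562 genes passed with vector.

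**Figure D1:**
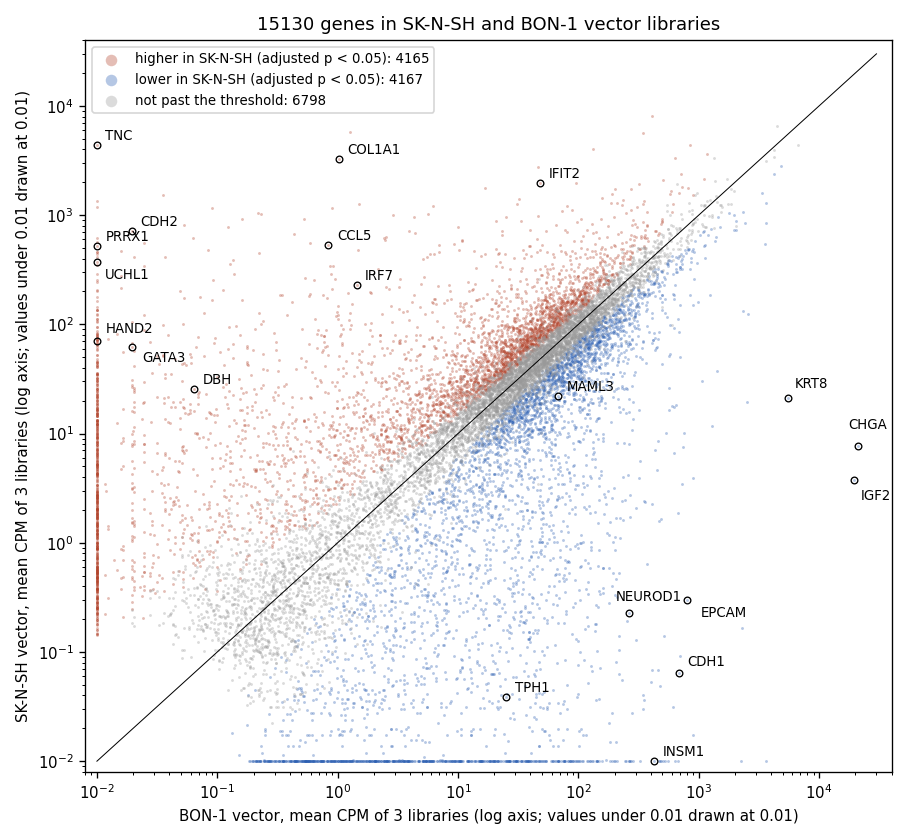
Mean CPM of each tested gene in SK-N-SH vector (vertical axis) against BON-1 vector (horizontal axis), 3 libraries each, both axes logarithmic, with genes past the threshold coloured by direction and selected genes named. Of 15130 genes, 4165 were higher and 4167 lower in SK-N-SH. TNC, PRRX1, UCHL1 and HAND2 lie at the left edge with 0 CPM in BON-1, and INSM1 lies at the lower edge with 0 CPM in SK-N-SH.

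Of 19 sympathoadrenal transcription factors in the table, 17 were tested, 9 were higher in SK-N-SH and 4 lower. The median of the tested members was 3.43 on the log2 scale, and the floored median 3.18. HAND2, a helix-loop-helix factor of sympathetic neurons, was at 73.4, 75.9 and 60.5 CPM in SK-N-SH vector 1 to 3 and at 0 in all BON-1 libraries, at least 360.2-fold higher (adjusted p = 2.87e-05). GATA3, which acts beside it, was at 64.6, 66.3 and 55.6 CPM in SK-N-SH, against 0, 0 and 0.0589 CPM in BON-1 (adjusted p = 4.58e-05). For these factors the groups were far apart, with the BON-1 libraries at the floor of the measurement.

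SOX11, a SoxC factor of immature neurons, was at 75.2 ± 18.7 CPM in SK-N-SH (here and below, mean ± SD, n = 3) and at 0 in BON-1, at least 387-fold higher (adjusted p = 5.51e-05). TBX2, a T-box factor of the adrenergic circuit, was at 111 ± 4.23 CPM in SK-N-SH, against 10.4 ± 4.89 CPM in BON-1 (log2 fold change 3.43, SE 0.41, adjusted p = 5.43e-04). ISL1, a LIM factor used by sympathetic neurons and by islet cells, was at 24.0 ± 4.48 CPM in SK-N-SH and 0.300 ± 0.352 CPM in BON-1 (6.30, SE 1.1, adjusted p = 0.00274), and QGP-1 vector had 20.8 CPM. ISL1 was therefore present in one of the pancreatic lines at a level near that of SK-N-SH.

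MYCN, DACH1 and KLF13 were among the 4 members that were lower in SK-N-SH. MYCN, the Myc family gene amplified in a subset of neuroblastomas, was at 0.0931, 0.272 and 0 CPM in SK-N-SH, against 23.9, 30.2 and 8.82 CPM in BON-1 (-7.40, SE 1.11, adjusted p = 0.00144). DACH1, a corepressor, was at 3.45 ± 1.04 CPM in SK-N-SH and 49.3 ± 5.81 CPM in BON-1 (-3.81, SE 0.27, adjusted p = 6.36e-05). MYCN was thus under 1 CPM in every SK-N-SH vector library. GATA2 was at 24.5 ± 12.8 CPM in SK-N-SH and 53.4 ± 22.0 CPM in BON-1 and did not pass (adjusted p = 0.101).

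PHOX2A, a paired homeobox factor of the sympathetic lineage, was at 10.1, 8.13 and 1.63 CPM in SK-N-SH vector 1 to 3 and at 0 in all BON-1 libraries, at least 34.1-fold higher (adjusted p = 0.00200). Vector 3 was the low library, and the groups did not overlap.

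SK-N-SH vector 3 stood apart from the other SK-N-SH libraries in many sympathetic and neuronal genes. Among 11934 genes with at least 1 CPM in SK-N-SH, 223 (1.87%) were more than 3-fold below both other libraries in vector 3, and 67 were more than 3-fold above them. Among the members of the lists with at least 1 CPM, the low ones were 4 of 16 sympathoadrenal factors (PHOX2A, HAND1 and TFAP2B among them), 3 of 10 catecholamine genes (DDC, DBH and SLC6A2), 6 of 20 neuronal cytoskeleton and RNA-binding genes, 6 of 20 vesicle release genes and 2 of 10 granin genes (CHGA and SCG3). Other lists also had low members, 7 of 18 NF-kB inflammatory genes among them. None of 19 mesenchymal neuroblastoma factors and none of 29 interferon-stimulated genes were so low. In both FL and dEx1, replicate 3 was again that low for 3 of the 4 sympathoadrenal factors and all 3 catecholamine genes. The same held for 5 of the 6 neuronal genes, 3 of the 6 vesicle release genes and the 2 granin genes, but for none of the 7 NF-kB genes. DBH was at 24.7, 44.8 and 3.59 CPM in SK-N-SH FL 1 to 3 and at 26.1, 34.2 and 4.99 CPM in SK-N-SH dEx1 1 to 3. HAND2, GATA3 and SOX11 were not among the low genes. In bulk RNA, fewer cells of a kind and less RNA per cell cannot be told apart. The calls of PHOX2A, DBH, SLC6A2 and CHGA held under all 16 alternatives, the one without vector 3 included. Without SK-N-SH vector 3, 11 of the sympathoadrenal factors were higher and 5 lower, and TFAP2B, which did not pass with all libraries (adjusted p = 0.164), passed as lower in SK-N-SH (-1.24, adjusted p = 0.00937).

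**Figure D2:**
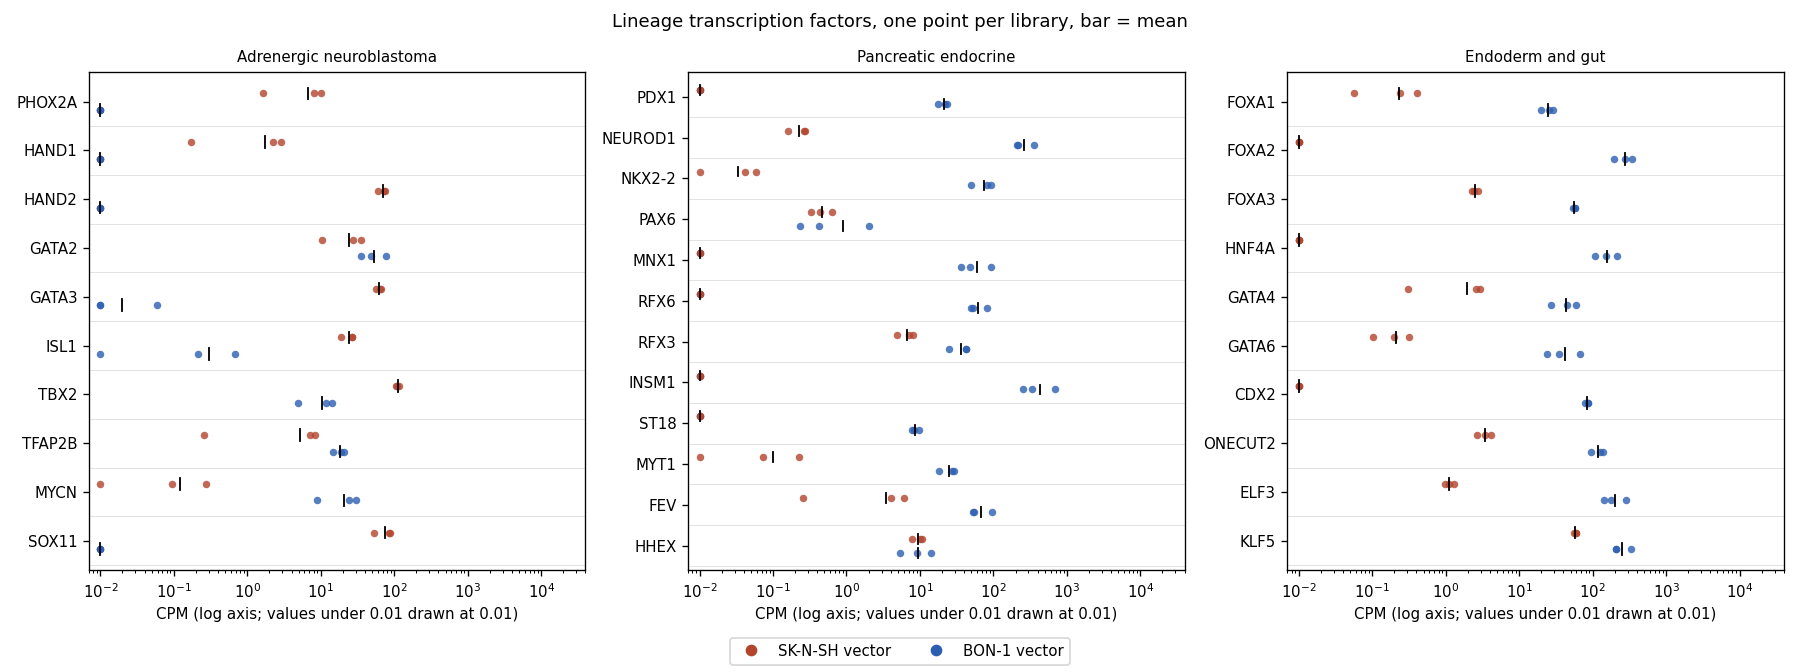
CPM of sympathoadrenal, pancreatic endocrine and endoderm or gut transcription factors, on a logarithmic axis, with 1 point per library and SK-N-SH vector above BON-1 vector for each gene. HAND2 and SOX11 were at 0 in all 3 BON-1 libraries, INSM1, FOXA2 and CDX2 at 0 in all 3 SK-N-SH libraries, and MYCN was on the BON-1 side.

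The factors of the mesenchymal neuroblastoma state were tested for 19 of 20 members, of which 15 were higher in SK-N-SH and 1 lower, with a median of 2.54 and a floored median of 2.51. PRRX1, a homeobox factor that can drive this state, was at 469, 451 and 649 CPM in SK-N-SH vector 1 to 3 and at 0 in BON-1, at least 2695-fold higher (adjusted p = 2.64e-05). TWIST1, a regulator of mesenchymal identity, was at 108 ± 21.3 CPM in SK-N-SH and at 0 in BON-1, at least 555-fold higher (adjusted p = 3.20e-05). ZEB2, a repressor of E-cadherin, was at 132 ± 20.4 CPM in SK-N-SH and 3.80 ± 0.195 CPM in BON-1 (5.15, SE 0.20, adjusted p = 2.06e-05). All libraries of SK-N-SH lay above all libraries of BON-1 for these genes, and vector 3 was not low in them.

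Of the effectors of the Hippo pathway, YAP1 was at 178 ± 6.80 CPM in SK-N-SH and 31.3 ± 15.8 CPM in BON-1 (2.54, SE 0.41, adjusted p = 0.00186), and WWTR1, which encodes its partner TAZ, was at 91.1 ± 28.8 CPM and 41.6 ± 6.15 CPM (1.16, SE 0.27, adjusted p = 0.00930). The 1 member lower in SK-N-SH was GLIS3, a zinc finger factor needed for islet development, at 12.2 ± 1.33 CPM in SK-N-SH and 35.7 ± 2.58 CPM in BON-1 (-1.52, SE 0.18, adjusted p = 4.77e-04). SNAI2, which is listed among mesenchymal factors, was at 8.34, 7.90 and 11.7 CPM in SK-N-SH and 7.11, 20.6 and 33.6 CPM in BON-1 and did not pass (adjusted p = 0.117). SMAD3 (adjusted p = 0.128) and BHLHE41 (adjusted p = 0.828) did not pass either. The summed level of the 20 members was 2874 to 2972 CPM in SK-N-SH and 564 to 907 CPM in BON-1.

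Pancreatic endocrine factors were mostly on the BON-1 side. Of 16 tested members 10 were lower in SK-N-SH and 2 higher, with a median of -6.11 and a floored median of -4.99. INSM1, a zinc finger repressor that marks neuroendocrine differentiation, was at 0 in all SK-N-SH libraries, against 253, 696 and 338 CPM in BON-1 vector 1 to 3, at least 2565-fold lower (adjusted p = 1.63e-04). NEUROD1, which drives endocrine and neuronal differentiation, was at 0.269, 0.260 and 0.158 CPM in SK-N-SH, against 211, 358 and 217 CPM in BON-1 (-10.13, SE 0.42, adjusted p = 2.06e-05). PDX1, the pancreatic homeobox factor, was at 0 in SK-N-SH and 21.1 ± 2.87 CPM in BON-1, at least 126-fold lower (adjusted p = 6.23e-05). The groups did not overlap for any of these 3 factors.

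RFX6, a factor upstream of islet genes, was at 0 in SK-N-SH and 62.0 ± 17.9 CPM in BON-1, at least 371-fold lower (adjusted p = 6.46e-05). NKX2-2, a homeobox factor of islet and enterochromaffin cells, was at 0.0335 ± 0.0303 CPM in SK-N-SH and 74.2 ± 22.0 CPM in BON-1 (adjusted p = 3.87e-05). ISL1, described above, was 1 of the 2 members higher in SK-N-SH. BON-1 did not carry the whole islet set: NKX6-1 was at 0 in all 6 libraries, and PAX6 was at 0.466 ± 0.149 CPM in SK-N-SH and 0.886 ± 0.974 CPM in BON-1 (adjusted p = 0.417). QGP-1 had 30.6 CPM of PAX6 and no NEUROD1, so the 2 pancreatic lines carried different endocrine factors.

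All 16 tested factors of endoderm and gut were lower in SK-N-SH, with a median of -7.31 and a floored median of -6.67. FOXA2, a pioneer factor of endoderm, was at 0 in all SK-N-SH libraries, against 348, 276 and 197 CPM in BON-1, at least 1637-fold lower (adjusted p = 3.85e-05). HNF4A, a nuclear receptor of liver and gut epithelium, was at 0 in SK-N-SH, against 107, 153 and 212 CPM in BON-1, at least 941-fold lower (adjusted p = 7.25e-05). CDX2, the intestinal homeobox factor, was at 0 in SK-N-SH, against 87.1, 79.6 and 87.3 CPM in BON-1, at least 506-fold lower (adjusted p = 2.06e-05). The intestinal factor thus stood beside PDX1 and RFX6 in BON-1.

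GATA4 and GATA6, zinc finger factors of endoderm and heart, were at 1.93 ± 1.42 CPM and 0.208 ± 0.110 CPM in SK-N-SH, against 43.7 ± 15.6 CPM and 42.3 ± 22.9 CPM in BON-1 (adjusted p = 0.00343 and 1.27e-04). The smallest difference in the list was that of KLF5, a factor of proliferating gut epithelium, at 56.1, 59.0 and 60.0 CPM in SK-N-SH, against 209, 208 and 333 CPM in BON-1 (-2.08, SE 0.23, adjusted p = 3.65e-04). The count of 16 lower was the same without SK-N-SH vector 3, without BON-1 vector 1 and without both.

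The granins and the enzymes that process prohormones were lower in SK-N-SH for 11 of 13 tested members and higher for none, with a median of -5.68 and a floored median of -5.72. Chromogranin A, encoded by CHGA (hg19 chromosome 14, 93389495 to 93401630), packs hormones in dense-core granules and is a serum marker of neuroendocrine tumours. Its level was 10.6, 10.9 and 1.68 CPM in SK-N-SH vector 1 to 3, against 33586, 17879.6 and 12085 CPM in BON-1 vector 1 to 3, a log2 fold change of -11.38 (SE 1.07, adjusted p = 1.90e-04). Every BON-1 library was far above every SK-N-SH library, although the libraries of each line spread widely. CHGB, its relative, was at 11.7 ± 4.52 CPM in SK-N-SH and 1279 ± 480.1 CPM in BON-1 (-6.73, SE 0.48, adjusted p = 6.46e-05), and QGP-1 had 811 CPM of CHGA and 1247 CPM of CHGB.

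Secretogranin II, encoded by SCG2, did not separate the lines. It was at 532, 546 and 1442 CPM in SK-N-SH, against 4186, 5863 and 912 CPM in BON-1, so the groups overlapped (-2.10, SE 0.72, adjusted p = 0.0427), and the call was lost under 8 alternatives. VGF, a precursor of neuropeptides, was at 794 ± 428 CPM in SK-N-SH and 2059 ± 1103 CPM in BON-1 and did not pass (adjusted p = 0.0799). PAM, the enzyme that amidates peptides, was at 554 ± 145 CPM in SK-N-SH and 818 ± 158 CPM in BON-1 and did not pass either (adjusted p = 0.106). PTPRN, a phosphatase-like protein of secretory granules, was at 17.5 ± 6.06 CPM in SK-N-SH and 34.1 ± 8.83 CPM in BON-1 (-0.94, adjusted p = 0.0394, a call lost under 7 alternatives).

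The convertase PCSK1, which cleaves prohormones, was at 0.0414 ± 0.0716 CPM in SK-N-SH and 25.7 ± 18.3 CPM in BON-1 (adjusted p = 0.00100). CPE, the carboxypeptidase that trims the products, was at 118 ± 26.0 CPM in SK-N-SH and 542 ± 175 CPM in BON-1 (-2.17, SE 0.27, adjusted p = 6.39e-04). Secretagogin, a calcium sensor of islet cells encoded by SCGN, was at 0 in SK-N-SH and 68.1 ± 14.6 CPM in BON-1, at least 407-fold lower (adjusted p = 4.35e-05). PCSK2, the convertase of glucagon, was at or near 0 in both lines, against 345 CPM in QGP-1. QGP-1 also had 589 CPM of PCSK1, so the convertases differed between the pancreatic lines as well as between SK-N-SH and BON-1.

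**Figure D3:**
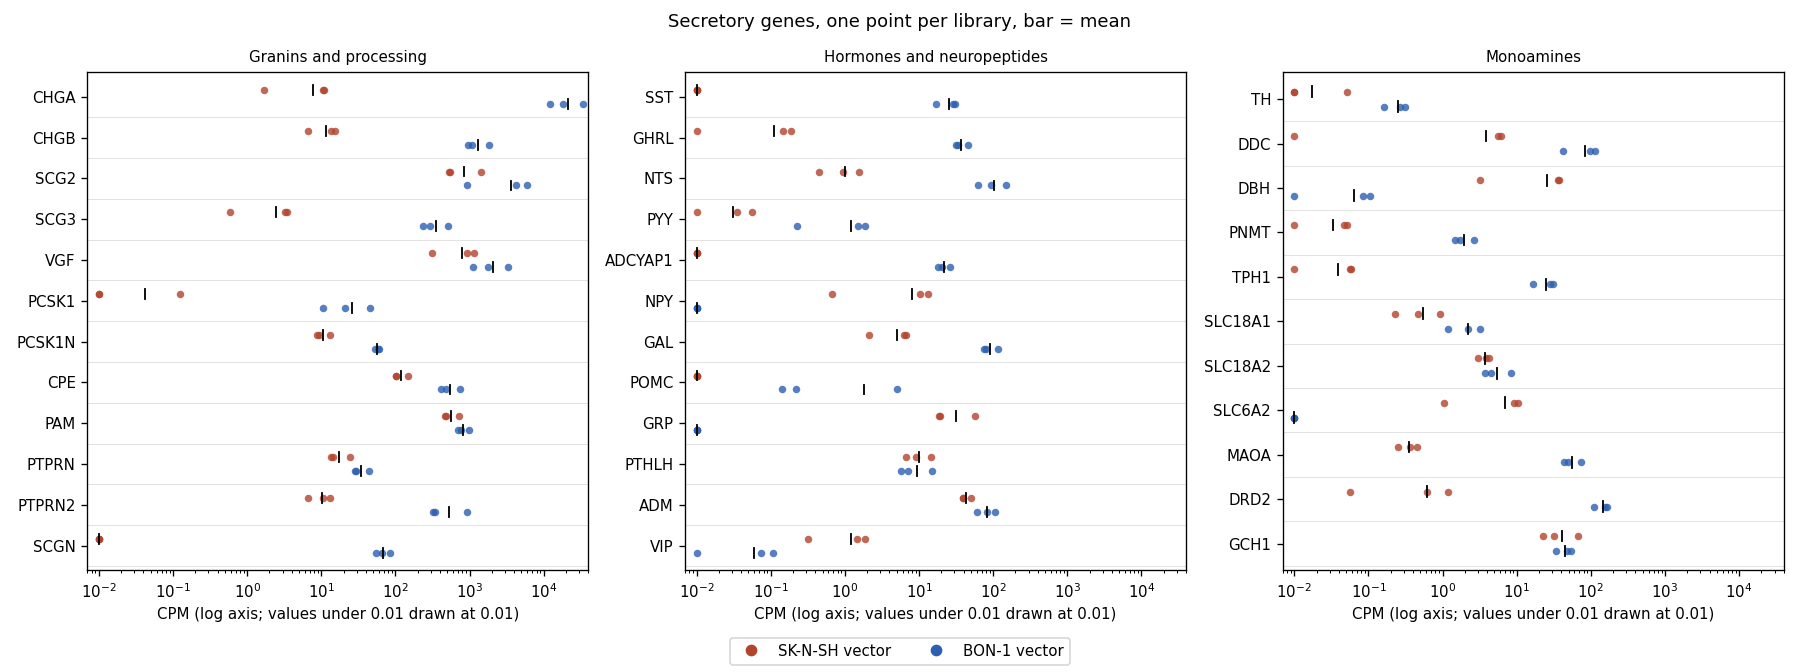
CPM of granins, hormones and monoamine genes on a logarithmic axis, with 1 point per library and SK-N-SH vector above BON-1 vector for each gene. CHGA lay between 1.68 and 10.9 CPM in SK-N-SH and between 12085 and 33586 CPM in BON-1, while SCG2 overlapped between the lines, and DBH and NPY were on the SK-N-SH side.

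The enzymes and transporters of catecholamines did not move together. Of 16 tested members, 3 were higher and 10 lower in SK-N-SH, with a median of -1.27 and a floored median of -0.71. DBH, which makes noradrenaline from dopamine, was at 36.5, 37.3 and 3.22 CPM in SK-N-SH vector 1 to 3, against 0, 0.0859 and 0.106 CPM in BON-1 (adjusted p = 0.00152). SLC6A2, the noradrenaline transporter, was at 9.32, 10.3 and 1.06 CPM in SK-N-SH and at 0 in BON-1, at least 35.5-fold higher (adjusted p = 0.00349). Both were lowest in vector 3, and neither overlapped between the lines.

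TH, the rate-limiting enzyme of the pathway, was near 0 in SK-N-SH, at 0.0517, 0 and 0 CPM, and at 0.310, 0.270 and 0.165 CPM in BON-1 (adjusted p = 0.0384, a call lost under 9 alternatives). DDC, which makes dopamine and serotonin, was at 5.6, 6.11 and 0 CPM in SK-N-SH, against 42.4, 114 and 97.5 CPM in BON-1 (-4.42, SE 1.43, adjusted p = 0.0347, a call lost under 5 alternatives). MAOA, which degrades monoamines, was at 0.353 ± 0.101 CPM in SK-N-SH and 56.1 ± 16.1 CPM in BON-1 (-7.28, SE 0.36, adjusted p = 2.22e-05). The dopamine receptor gene DRD2 was at 0.612 ± 0.557 CPM in SK-N-SH and 145 ± 29.8 CPM in BON-1 (-7.86, SE 0.93, adjusted p = 5.07e-04). The last enzyme of noradrenaline synthesis was thus on the SK-N-SH side, while the first was low in both lines. Of the 13 calls in the list, 7 were made without BON-1 vector 3, 8 without SK-N-SH vector 1 or 2, and 9 without SK-N-SH vector 3.

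Serotonin genes were higher in SK-N-SH for 1 of 9 tested members and lower for 6, with a median of -4.27 and a floored median of -3.35. TPH1, the rate-limiting enzyme in enterochromaffin cells, was at 0, 0.0591 and 0.0564 CPM in SK-N-SH, against 16.8, 31.1 and 27.8 CPM in BON-1 (adjusted p = 1.12e-04), and QGP-1 had 650.5 CPM. LMX1B, a homeobox factor of serotonin neurons, was at 0 in SK-N-SH and 16.7 ± 5.82 CPM in BON-1, at least 99.7-fold lower (adjusted p = 1.76e-04). FEV, an ETS factor of serotonin-producing cells, was at 4.06, 5.98 and 0.260 CPM in SK-N-SH, against 53.5, 94.1 and 54.4 CPM in BON-1 (-4.27, SE 0.99, adjusted p = 0.00924). The 1 member higher in SK-N-SH was the receptor HTR1B, at 6.14 ± 1.51 CPM in SK-N-SH and 2.62 ± 0.474 CPM in BON-1 (1.26, SE 0.32, adjusted p = 0.0146, a call lost under 2 alternatives). The serotonin transporter SLC6A4 was at 0.0945 to 0.258 CPM in SK-N-SH and 0.0353 to 0.221 CPM in BON-1 and was too low to be tested.

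Of 16 tested peptide hormones and neuropeptides, 3 were higher in SK-N-SH and 9 lower, with a median of -3.56 and a floored median of -2.26. The 3 higher ones were GRP, NPY and VIP, the last at 1.46, 1.87 and 0.316 CPM in SK-N-SH, against 0.0738, 0 and 0.106 CPM in BON-1 (adjusted p = 0.0189). GRP, the gastrin-releasing peptide, was at 19.5, 18.4 and 56.9 CPM in SK-N-SH and at 0 in BON-1, at least 163-fold higher (adjusted p = 5.08e-04). NPY, the co-transmitter of sympathetic neurons, was at 10.5, 13.2 and 0.677 CPM in SK-N-SH and at 0 in BON-1, at least 41.8-fold higher (adjusted p = 0.00602). GRP was highest in the library in which NPY was lowest.

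On the BON-1 side, neurotensin, encoded by NTS, was at 0.990 ± 0.558 CPM in SK-N-SH and 102 ± 44.8 CPM in BON-1 (-6.68, SE 0.61, adjusted p = 1.66e-04). Somatostatin, encoded by SST, was at 0 in SK-N-SH and 25.3 ± 7.14 CPM in BON-1, at least 151-fold lower (adjusted p = 1.1e-04), with 739 CPM in QGP-1. GHRL, the ghrelin gene, was at 0.111 ± 0.0989 CPM in SK-N-SH and 37.4 ± 7.93 CPM in BON-1 (-8.34, SE 0.86, adjusted p = 2.84e-04), and GAL, the galanin gene, was at 5.07 ± 2.54 CPM and 90.2 ± 21.9 CPM (-4.13, SE 0.49, adjusted p = 5.02e-04). GCG, PPY and IAPP, of the islet hormones, were at or near 0 in both lines.

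Receptors that bind somatostatin, incretins and related ligands were lower in SK-N-SH for 7 of 8 tested members. SSTR5 was at 0, 0 and 0.0451 CPM in SK-N-SH, against 226, 184 and 141 CPM in BON-1 (adjusted p = 2.42e-05). SSTR2, the receptor targeted by somatostatin analogues in imaging, was at 9.48, 8.25 and 6.19 CPM in SK-N-SH, against 19.6, 22.3 and 19.8 CPM in BON-1 (-1.34, SE 0.24, adjusted p = 0.00284). The neurotensin receptor NTSR1 was at 17.5 ± 5.03 CPM in SK-N-SH and 67.2 ± 7.74 CPM in BON-1 (-1.91, SE 0.26, adjusted p = 9.35e-04). SSTR2 was therefore detected in every library of both lines, and SSTR5 well above the floor in BON-1 libraries only.

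The genes of vesicle release were lower in SK-N-SH for 15 of 24 tested members and higher for 6, with a median of -1.82 and a floored median of -1.85. SYP, synaptophysin, which is used to stain neuroendocrine tumours, was at 3.30, 3.76 and 0.880 CPM in SK-N-SH, against 67.4, 93.3 and 58.9 CPM in BON-1 (-4.76, SE 0.58, adjusted p = 5.79e-04). SYT11, a synaptotagmin, was at 186 ± 9.03 CPM in SK-N-SH and 0.753 ± 0.436 CPM in BON-1 (7.95, SE 0.57, adjusted p = 6.58e-05). SYT1, the calcium sensor of synaptic vesicles, was at 151, 168 and 93.5 CPM in SK-N-SH and 95.4, 44.7 and 51.7 CPM in BON-1, with groups that overlapped (1.14, SE 0.34, adjusted p = 0.0251, a call lost under 4 alternatives).

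Neuronal cytoskeleton and RNA-binding genes split as well, with 10 of 22 tested members higher in SK-N-SH and 7 lower. UCHL1, a ubiquitin hydrolase abundant in neurons, was at 363, 380.5 and 371 CPM in SK-N-SH and at 0 in BON-1, at least 1914-fold higher (adjusted p = 2.06e-05). MAP2, a dendritic microtubule protein, was at 45.5 ± 6.97 CPM in SK-N-SH and 1.56 ± 0.308 CPM in BON-1 (4.89, SE 0.25, adjusted p = 2.42e-05), and STMN2 was at 9.75, 11 and 2.98 CPM in SK-N-SH and at 0 in BON-1, at least 40.8-fold higher (adjusted p = 9.03e-04). The neurofilament gene NEFM ran the other way, at 5.47, 6.38 and 0.293 CPM in SK-N-SH, against 119, 155 and 101 CPM in BON-1 (-4.92, SE 1.00, adjusted p = 0.00521), as did NEFL (-3.45, SE 0.82, adjusted p = 0.0104). REST, the repressor that silences neuronal genes outside the nervous system, was at 71.0 ± 7.57 CPM in SK-N-SH and 21.0 ± 6.12 CPM in BON-1 (1.79, SE 0.25, adjusted p = 0.00103). SRRM4, a splicing factor that acts on REST, was at 0.585 ± 0.600 CPM in SK-N-SH and 14.7 ± 8.35 CPM in BON-1 (-4.61, SE 1.28, adjusted p = 0.0194, a call lost under 2 alternatives). Neuronal genes were thus found on either side, and the repressor was higher in the line of neural crest origin.

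Among voltage-gated and beta-cell channels, 6 of 23 tested members were higher in SK-N-SH and 11 lower. CACNA1H, a T-type calcium channel, was at 0.0931, 0 and 0 CPM in SK-N-SH, against 621, 665 and 533 CPM in BON-1 (adjusted p = 3.86e-05). The subunits of the ATP-sensitive potassium channel of islet cells were on the same side: ABCC8 was at 0 in SK-N-SH and 26.9 ± 11.7 CPM in BON-1, at least 161-fold lower (adjusted p = 2.02e-04), and KCNJ11 was at 0.309 ± 0.106 CPM and 42.2 ± 21.1 CPM (-7.05, SE 0.54, adjusted p = 8.90e-05). SCN9A, a sodium channel of sympathetic and sensory neurons, was at 21.5 ± 6.03 CPM in SK-N-SH and at 0 in BON-1, at least 111-fold higher (adjusted p = 1.09e-04).

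Epithelial genes were lower in SK-N-SH almost throughout. Of 25 junction and polarity genes tested, 22 were lower and 1 higher, with a median of -8.11 and a floored one of -7.70, and of 17 keratins and desmosome genes 16 were lower and 1 higher, with a median of -8.47 and a floored one of -7.02. CDH1, E-cadherin, was at 0.0517, 0.142 and 0 CPM in SK-N-SH, against 773, 504 and 796 CPM in BON-1 (adjusted p = 3.79e-05). EPCAM was at 0.248, 0.213 and 0.429 CPM in SK-N-SH, against 749, 621 and 1028 CPM in BON-1 (-11.37, SE 0.44, adjusted p = 2.06e-05). CDH2, N-cadherin, was the reverse, at 645, 699.9 and 792 CPM in SK-N-SH, against 0, 0 and 0.0589 CPM in BON-1 (adjusted p = 2.06e-05). The cadherins exchanged places between the lines with no overlap.

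Keratin 8, KRT8, was at 21.1 ± 5.74 CPM in SK-N-SH and 5549.7 ± 2288 CPM in BON-1 (-8.02, SE 0.52, adjusted p = 4.80e-05), and KRT19 was at 0.165 ± 0.0946 CPM and 2287 ± 1167 CPM (-13.74, SE 0.80, adjusted p = 3.36e-05). KRT18 was still at 132 ± 63.3 CPM in SK-N-SH, against 2324 ± 707 CPM in BON-1 (-4.12, SE 0.45, adjusted p = 3.42e-04). The members that ran against their lists were the tight junction gene CLDN1, at 83.2 ± 27.5 CPM in SK-N-SH and 9.45 ± 9.36 CPM in BON-1 (3.15, SE 0.73, adjusted p = 0.00927), and KRT80, at 46.5 ± 30.5 CPM and 12.8 ± 9.29 CPM (1.87, SE 0.64, adjusted p = 0.0423), a call lost under 4 alternatives, the one without SK-N-SH vector 3 among them.

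Carcinoma surface antigens and mucins had the lowest medians of all lists, -15.99 fitted and -9.75 floored, with 14 of 17 tested members lower in SK-N-SH and 1 higher. AGR2, a disulfide isomerase of mucus-secreting cells, was at 0 in SK-N-SH, against 1642, 4260.5 and 4917 CPM in BON-1, at least 21569.6-fold lower (adjusted p = 1.36e-04). CEACAM5, the carcinoembryonic antigen, was at 0 in SK-N-SH, against 1907, 1099 and 3763 CPM in BON-1, at least 13494-fold lower (adjusted p = 1.69e-04), with counting that near-identical CEACAM genes may share. CDH17, the liver-intestine cadherin, was at 0 in SK-N-SH and 629.7 ± 214 CPM in BON-1, at least 3766-fold lower (adjusted p = 5.51e-05), and was at 0 in QGP-1 as well. VIL1, villin of the gut brush border, was at 0.0172 ± 0.0298 CPM in SK-N-SH and 899.7 ± 97.5 CPM in BON-1 (adjusted p = 2.06e-05). BON-1 thus carried intestinal surface genes at levels that set it apart from SK-N-SH, and for CDH17 from the other pancreatic line by value.

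Matrix genes were the counterpart. Of 26 tested matrix and collagen genes, 23 were higher in SK-N-SH and none lower, with a median of 7.74 and a floored one of 6.50, and the summed level of the list was 20934 to 33105 CPM in SK-N-SH, against 1581 to 2109 CPM in BON-1 and 176 to 185 CPM in QGP-1. TNC, tenascin C, was at 4045, 4016 and 5058 CPM in SK-N-SH and at 0 in all BON-1 libraries, at least 22535-fold higher (adjusted p = 2.21e-05). COL1A1, a chain of type I collagen, was at 2124, 1794 and 5962 CPM in SK-N-SH, against 0.590, 1.44 and 1.04 CPM in BON-1 (11.66, SE 0.82, adjusted p = 6.28e-05). COL1A2, the other chain of that collagen, was at 6.55 ± 1.32 CPM in SK-N-SH. FN1, fibronectin, was at 3322 ± 289 CPM in SK-N-SH and 641 ± 35 CPM in BON-1 (2.40, SE 0.18, adjusted p = 8.17e-05), so BON-1 held fibronectin while COL1A1 stayed under 2 CPM there.

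SK-N-SH vector 3 was more than 3-fold above both other SK-N-SH libraries in 2 of 16 genes of the mesenchymal cytoskeleton and in 3 of 25 matrix genes with at least 1 CPM. TAGLN, transgelin of smooth muscle, was at 329, 295 and 1137 CPM in SK-N-SH, against 2.49, 2.41 and 2.46 CPM in BON-1 (7.92, SE 0.69, adjusted p = 1.37e-04), and ACTA2, smooth muscle actin, was at 92.6, 85.5 and 423 CPM, against 0, 0.147 and 0 CPM (adjusted p = 4.10e-04). VIM, vimentin, was at 5611 ± 1484 CPM in SK-N-SH and 346 ± 186 CPM in BON-1 (4.03, SE 0.54, adjusted p = 8.95e-04). Of 16 tested cytoskeletal genes of mesenchymal cells, 11 were higher in SK-N-SH and 1 lower, the calcium-binding protein gene S100A6, at 549 ± 46.9 CPM in SK-N-SH and 3573 ± 1032 CPM in BON-1 (-2.67, SE 0.25, adjusted p = 1.76e-04). Without SK-N-SH vector 3 the counts were 9 higher and 3 lower.

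The 15 genes with the highest and the 15 with the lowest fitted fold changes, among those with at least 50 CPM and separate groups, were all at 0 in every library of the other line. Their place in that order was set by those zeros, so they are given as genes detected in 1 line and not as the largest differences. On the SK-N-SH side, beside TNC, PRRX1 and UCHL1, were MME, a membrane metalloprotease, POSTN, periostin, PXDN, a peroxidase that crosslinks basement membrane, VEGFC, a lymphatic growth factor, THY1, SLIT3, COL8A1, EDIL3, SFRP1, VCAM1, CCL2 and GSTP1. MME was at 870.4 to 1636 CPM in SK-N-SH, POSTN at 1030.4 to 1386 CPM, PXDN at 599 to 630.4 CPM and GSTP1, a glutathione transferase, at 187 to 242 CPM. QGP-1 had 594 CPM of GSTP1 and none of MME, POSTN or PXDN.

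On the BON-1 side the 15 were AGR2, CEACAM5, CEACAM6, CDH17, TFF1, F5, B3GNT3, TSPAN8, PRSS1, INSM1, LTBR, REG4, FOXA2, TM4SF4 and FXYD3. F5, coagulation factor V, was at 432 to 644 CPM in BON-1, TFF1, a trefoil peptide of mucous epithelium, at 299.8 to 741 CPM, and REG4, a lectin of the gut, at 110.2 to 573 CPM. LTBR, the lymphotoxin beta receptor, was at 238 to 411 CPM in BON-1 and 159.8 CPM in QGP-1, and at least 1958-fold lower in SK-N-SH (adjusted p = 3.51e-05). TFF1, AGR2, REG4 and CDH17 are genes of mucosal epithelium, and LTBR is a broadly expressed receptor that feeds NF-kB.

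Of 23 tested receptor tyrosine kinases and coreceptors, 9 were higher in SK-N-SH and 12 lower. AXL, a receptor of mesenchymal cells, was at 1002, 885 and 888 CPM in SK-N-SH, against 0.295, 0.160 and 1.11 CPM in BON-1 (10.80, SE 0.84, adjusted p = 9.20e-05). PDGFRB, a receptor of stromal cells, was at 127, 143 and 226 CPM in SK-N-SH, against 0, 0.233 and 0.247 CPM in BON-1 (9.96, SE 0.84, adjusted p = 1.20e-04). ALK, the kinase mutated in familial neuroblastoma, was at 1.90, 3.07 and 0.135 CPM in SK-N-SH, against 11, 34.7 and 20.2 CPM in BON-1 (-3.67, SE 1.01, adjusted p = 0.0189). ERBB3 was at 1.71 ± 0.233 CPM in SK-N-SH and 269.6 ± 172 CPM in BON-1 (-7.25, SE 0.54, adjusted p = 7.55e-05). AXL and PDGFRB were thus higher and ALK and ERBB3 lower in SK-N-SH, with no overlap between the lines.

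RET, the receptor of glial-derived factors, was at 13.5, 11.2 and 3.04 CPM in SK-N-SH, against 0.826, 2.85 and 2.23 CPM in BON-1 (2.25, SE 0.69, adjusted p = 0.0287), and its coreceptor GFRA1 was at 66.5 ± 6.74 CPM, against 0.136 ± 0.0155 CPM (adjusted p = 2.06e-05). MET, the hepatocyte growth factor receptor, differed little, at 368 ± 69.5 CPM in SK-N-SH and 222 ± 54.8 CPM in BON-1 (0.76, SE 0.23, adjusted p = 0.0293).

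IGF2, the imprinted fetal growth factor (hg19 chromosome 11, 2150342 to 2179621), was at 6.20, 4.63 and 0.372 CPM in SK-N-SH, against 19531, 26649.7 and 12699 CPM in BON-1 (-12.33, SE 1.32, adjusted p = 3.25e-04). The readthrough gene INS-IGF2 shares its sequence, and the counting may split reads between them. H19, the imprinted non-coding gene next to it, was at 27.1, 23.3 and 0.666 CPM in SK-N-SH and 13.3, 0.246 and 1.05 CPM in BON-1 and did not pass (adjusted p = 0.350). PEG10, a paternally expressed gene, was at 125 ± 21.2 CPM in SK-N-SH and 2584 ± 359 CPM in BON-1 (-4.34, SE 0.23, adjusted p = 2.86e-05), and IGFBP4, a binding protein, at 553 ± 95.1 CPM and 0.594 ± 0.272 CPM (9.87, SE 0.44, adjusted p = 2.06e-05). In the whole list 9 of 20 tested members were higher and 7 lower, so the IGF axis and the imprinted genes did not share a direction.

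All 11 tested genes of the HOXA and HOXB clusters were lower in SK-N-SH, with a median of -9.18 and a floored one of -7.27, while the HOXC and HOXD clusters had 3 of 8 higher and 3 lower. HOXA10 was at 0.672, 1.04 and 0.0451 CPM in SK-N-SH, against 179.6, 192 and 172 CPM in BON-1 (-8.24, SE 0.92, adjusted p = 3.95e-04). HOXB9 was at 0.755, 1.23 and 0.102 CPM in SK-N-SH, against 137, 92.2 and 110.0 CPM in BON-1 (-7.31, SE 0.83, adjusted p = 4.15e-04). HOXD9 was at 23.0, 23.7 and 14.8 CPM in SK-N-SH, against 0.295, 0.196 and 0.389 CPM in BON-1 (6.14, SE 0.40, adjusted p = 4.93e-05). HOXC10 was at 0.0138 ± 0.0239 CPM in SK-N-SH and 68.3 ± 8.70 CPM in BON-1 (adjusted p = 3.31e-05). HOX genes record position along the body axis, and the lines differed in which clusters they held.

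Of 21 tested Notch receptors, ligands and targets, 6 were higher in SK-N-SH and 13 lower, with a median of -1.62 and a floored median of -1.65. Of the receptors, NOTCH1, NOTCH2 and NOTCH3 were higher in SK-N-SH. NOTCH1 was at 165, 157 and 121 CPM in SK-N-SH, against 19.4, 30.0 and 27.9 CPM in BON-1 (2.54, SE 0.24, adjusted p = 1.96e-04), NOTCH2 was at 498 ± 69.8 CPM, against 106 ± 33.3 CPM (2.27, SE 0.25, adjusted p = 3.65e-04), and NOTCH3 was at 93.9 ± 35.1 CPM, against 4.57 ± 0.331 CPM (4.38, SE 0.30, adjusted p = 5.95e-05). Of the ligands, DLL1, DLL3, DLL4, JAG1 and JAG2 were lower in SK-N-SH and DLK1, a non-canonical ligand, was higher, at 32.1, 35.3 and 1.95 CPM in SK-N-SH, against 0, 0.160 and 0.0825 CPM in BON-1 (adjusted p = 0.00295). DLL4 was at 0.0767 ± 0.0695 CPM in SK-N-SH and 98.9 ± 27.6 CPM in BON-1 (adjusted p = 8.89e-05), JAG1 was at 72.4 ± 14.3 CPM and 277 ± 85.5 CPM (-1.92, SE 0.29, adjusted p = 0.00137), and JAG2 was at 2.71 ± 0.392 CPM and 83.9 ± 26.2 CPM (-4.93, SE 0.31, adjusted p = 4.56e-05). Of the targets, HES1 was at 10.9 ± 2.32 CPM in SK-N-SH and 115 ± 38.3 CPM in BON-1 (-3.36, SE 0.29, adjusted p = 1.35e-04), and HEY1 was at 7.65 ± 1.34 CPM and 5.81 ± 3.14 CPM and did not pass (adjusted p = 0.391).

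Of the 3 coactivators of Notch, MAML2 and MAML3 also differed between the lines with the empty vector. MAML3 (hg19 chromosome 4, 140637907 to 141075338) was at 16.9, 30.3 and 18.8 CPM in SK-N-SH, against 69.8, 70.6 and 63.0 CPM in BON-1 (-1.60, SE 0.25, adjusted p = 0.00168), and QGP-1 had 68.5 CPM. MAML2 was at 68.3, 64.7 and 76.1 CPM in SK-N-SH, against 29.6, 17.5 and 21.2 CPM in BON-1 (1.65, SE 0.21, adjusted p = 7.59e-04). MAML1 was at 94.4 ± 10.6 CPM in SK-N-SH and 80.3 ± 7.79 CPM in BON-1 and did not pass (0.26, SE 0.15, adjusted p = 0.175). RBPJ, the DNA-binding partner of Notch, was at 75.2 ± 8.78 CPM in SK-N-SH and 37.3 ± 2.46 CPM in BON-1 (1.04, SE 0.15, adjusted p = 0.00130). MAML2 and MAML3 thus differed between the lines in opposite directions.

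Interferon-stimulated genes were higher in SK-N-SH for 26 of 29 tested members and lower for none, with a median of 3.14 and a floored median of 3.11. These genes are switched on when the factor ISGF3 binds interferon-stimulated response elements in their promoters. The promoters of 3 members are shown because 2 of them, IFIT1 and IFIT3, carried large differences and the third, ISG15, carried none that passed, and because all 3 hold the same element. The sequences are from RefSeq, build GRCh38.p14, and run 5′ to 3′ on the plus strand from 250 bases before the annotated start to 50 after it, at chr10:89392373-89392672 for IFIT1, chr10:89327747-89328046 for IFIT3 and chr1:1013247-1013546 for ISG15. Capitals mark matches to GAAANNGAA on either strand, overlapping matches merged. The element was found in 14 of 20 promoters of the list and in 1111 of 15205 promoters of all genes in the table (7.307%). A match describes the letters only.
IFIT1: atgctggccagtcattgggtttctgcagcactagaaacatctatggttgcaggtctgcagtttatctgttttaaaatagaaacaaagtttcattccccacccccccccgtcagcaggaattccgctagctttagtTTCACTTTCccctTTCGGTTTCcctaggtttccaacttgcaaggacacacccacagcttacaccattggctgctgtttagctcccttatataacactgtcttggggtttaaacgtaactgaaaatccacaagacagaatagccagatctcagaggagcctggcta
IFIT3: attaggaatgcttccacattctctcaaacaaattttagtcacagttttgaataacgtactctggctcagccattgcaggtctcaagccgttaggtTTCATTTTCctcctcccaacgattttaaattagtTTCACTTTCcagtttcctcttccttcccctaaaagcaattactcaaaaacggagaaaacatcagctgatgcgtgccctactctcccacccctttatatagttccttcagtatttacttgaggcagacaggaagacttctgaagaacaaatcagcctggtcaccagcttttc
ISG15: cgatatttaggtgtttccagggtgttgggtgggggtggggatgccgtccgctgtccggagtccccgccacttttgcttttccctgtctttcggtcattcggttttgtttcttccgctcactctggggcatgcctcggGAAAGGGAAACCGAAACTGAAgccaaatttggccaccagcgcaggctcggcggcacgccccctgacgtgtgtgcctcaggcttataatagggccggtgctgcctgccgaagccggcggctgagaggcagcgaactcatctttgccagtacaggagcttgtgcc

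IFIT2 (hg19 chromosome 10, 91043451 to 91069028), which blocks translation of viral RNA, was at 2427, 2118 and 1318 CPM in SK-N-SH, against 58.9, 18.4 and 67.3 CPM in BON-1 (5.38, SE 0.58, adjusted p = 3.32e-04). IFIT3 was at 1579.7, 1427 and 1234 CPM in SK-N-SH, against 43.5, 9.91 and 43.8 CPM in BON-1 (5.48, SE 0.61, adjusted p = 3.93e-04), and IFIT1 was at 936, 853 and 960.2 CPM, against 138, 36.7 and 141 CPM (3.15, SE 0.50, adjusted p = 0.00178). For all 3 genes every SK-N-SH library was above every BON-1 library, and BON-1 vector 2 was the lowest. MX2, a GTPase that restricts viruses, was at 609, 588 and 537 CPM in SK-N-SH, against 11, 5.03 and 16.7 CPM in BON-1 (5.76, SE 0.48, adjusted p = 1.12e-04), and OAS2, which senses double-stranded RNA, was at 476 ± 32.3 CPM, against 10.1 ± 4.57 CPM (5.58, SE 0.41, adjusted p = 7.04e-05).

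IRF7, the factor that amplifies interferon production, was at 247, 231 and 207 CPM in SK-N-SH, against 1.22, 1.20 and 1.90 CPM in BON-1 (7.33, SE 0.28, adjusted p = 2.06e-05). XAF1, a proapoptotic gene, was at 219.8 ± 64.4 CPM in SK-N-SH and 2.53 ± 1.44 CPM in BON-1 (6.46, SE 0.52, adjusted p = 1.05e-04). The 3 members that did not pass were ISG15, at 825, 814 and 795 CPM in SK-N-SH and 989.8, 253 and 512 CPM in BON-1 (adjusted p = 0.351), ISG20 (adjusted p = 0.219), and IRF9, a subunit of ISGF3, at 288 ± 7.19 CPM and 278 ± 59.8 CPM (adjusted p = 0.708). ISG15 passed without BON-1 vector 1 (1.09, adjusted p = 0.0271). The call of OAS1 (1.12, adjusted p = 0.0443) was lost under 5 alternatives.

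The summed level of the interferon-stimulated list was 15912 to 19112 CPM in SK-N-SH vector, against 1858 to 4018 CPM in BON-1 vector. QGP-1 vector, transfected in the same way but grown in RPMI, had 423 to 468 CPM. In FL libraries 28 of 29 members were higher in SK-N-SH and none lower, and in dEx1 libraries 22 were higher and 1 lower. IFIT2 averaged 967 CPM in SK-N-SH FL against 29.0 CPM in BON-1 FL, and 140.2 CPM in SK-N-SH dEx1 against 14.8 CPM in BON-1 dEx1. The difference between the lines was thus found in all 3 transfections, at levels in SK-N-SH that varied between them.

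**Figure D4:**
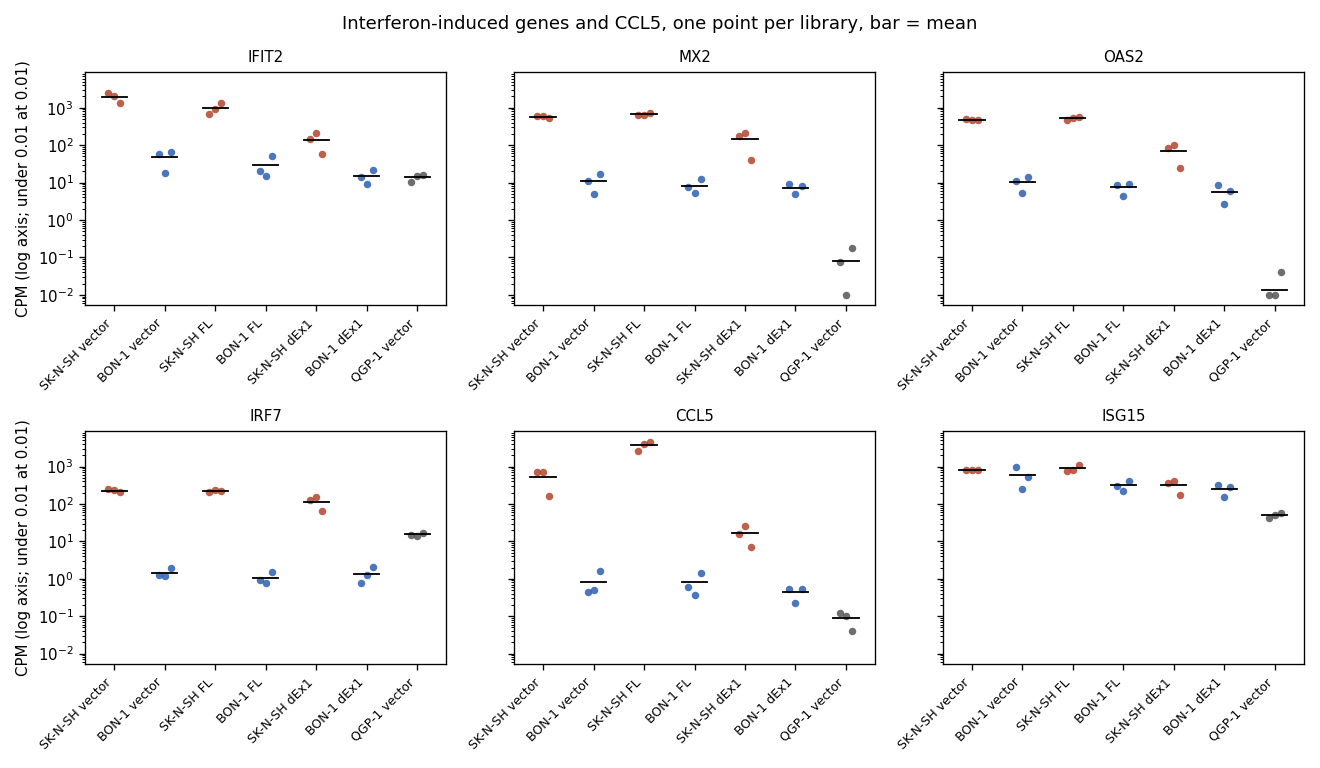
CPM of IFIT2, MX2, OAS2, IRF7, CCL5 and ISG15 on a logarithmic axis, with 1 point per library, for SK-N-SH and BON-1 with vector, FL and dEx1 and for QGP-1 vector. IRF7 lay between 207 and 247 CPM in SK-N-SH vector and between 1.20 and 1.90 CPM in BON-1 vector, while ISG15 overlapped between the lines with vector.

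Of 19 tested interferons, their receptors and sensors of nucleic acid, 13 were higher in SK-N-SH and 4 lower. With FL 12 of 18 tested members were higher and 4 lower, and with dEx1 7 of 15 were higher and 4 lower. IFNB1, interferon beta, was at 22.1, 17.3 and 6.87 CPM in SK-N-SH and at 0 in BON-1, at least 79.6-fold higher (adjusted p = 4.89e-04). Its mean was 3.69 CPM in SK-N-SH FL and 0.272 CPM in SK-N-SH dEx1, with 0 in BON-1 in both. QGP-1 vector also had 0 CPM of IFNB1. The gene lies on hg19 chromosome 9 at 21077103 to 21077941, near a run of genes at 0 in BON-1 that is described below. Whether its 0 in BON-1 belongs with that run was not tested. IFI16, a DNA sensor, was at 1085, 1033 and 941 CPM in SK-N-SH, against 0.133, 0 and 0.566 CPM in BON-1 (12.08, SE 1.15, adjusted p = 1.95e-04). TLR3, a receptor of double-stranded RNA, was at 68.8 ± 3.73 CPM in SK-N-SH and 0.309 ± 0.272 CPM in BON-1 (7.81, SE 0.73, adjusted p = 1.80e-04), and AIM2, another DNA sensor, was at 44.5 ± 19.4 CPM and 0, at least 229-fold higher (adjusted p = 2.26e-04).

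The pathway was not on 1 side as a whole. IRF3, the factor that first induces interferon beta, was at 54.8, 53.4 and 58.2 CPM in SK-N-SH, against 141, 144 and 134 CPM in BON-1 (-1.31, SE 0.13, adjusted p = 2.12e-04). MAVS, the mitochondrial adaptor of RNA sensors, was at 83.5 ± 20.4 CPM in SK-N-SH and 196 ± 25.9 CPM in BON-1 (-1.20, SE 0.21, adjusted p = 0.00296), and IFNLR1, the receptor of type III interferons on epithelia, was at 4.12 ± 0.741 CPM and 31.6 ± 11.2 CPM (-2.92, SE 0.32, adjusted p = 3.65e-04). IFNAR1, of the type I receptor, was at 65.3 ± 5.53 CPM and 69.9 ± 9.66 CPM and did not pass (adjusted p = 0.721). BON-1 therefore held transcripts of IFNAR1, IFNLR1, MAVS and IRF3, while the sensors IFI16, AIM2 and TLR3 were at or near 0 there. Whether these levels bear on those of the interferon-stimulated genes was not tested.

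Of 13 tested genes of MHC class I and antigen presentation, 10 were higher in SK-N-SH and none lower, with a median of 2.12 and a floored median of 1.93. TAP1, a peptide transporter, was at 929 ± 106 CPM in SK-N-SH and 155 ± 48.0 CPM in BON-1 (2.62, SE 0.25, adjusted p = 2.08e-04), and PSMB9, of the immunoproteasome, was at 169 ± 10.8 CPM and 8.78 ± 4.46 CPM (4.31, SE 0.37, adjusted p = 1.22e-04). B2M, the light chain of class I molecules, was at 2147 ± 532 CPM and 1734 ± 887 CPM (adjusted p = 0.475). HLA-C did not pass with all libraries (1.36, adjusted p = 0.0694) and passed without BON-1 vector 1 (2.11, adjusted p = 0.00689). HLA genes are near-identical in parts and variable between people, so their counts are uncertain. With dEx1, 5 of 11 tested members were higher and 1 lower.

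NF-kB inflammatory genes were higher in SK-N-SH for 15 of 20 tested members and lower for 1, with a median of 3.00 and a floored median of 2.56. With FL 19 of 21 tested members were higher and none lower, and with dEx1 10 of 20 were higher and 3 lower. CCL5, a T cell chemokine, was at 695, 734 and 161 CPM in SK-N-SH, against 0.457, 0.491 and 1.57 CPM in BON-1 (9.31, SE 0.95, adjusted p = 2.65e-04). CCL2, a monocyte chemokine, was at 236, 185 and 306 CPM in SK-N-SH and at 0 in BON-1, at least 1248-fold higher (adjusted p = 3.64e-05), and IL6 was at 109, 80.7 and 25.9 CPM, against 0, at least 370.4-fold higher (adjusted p = 5.03e-04). ICAM1, an adhesion molecule, was at 892 ± 288 CPM in SK-N-SH and 20.5 ± 15 CPM in BON-1 (5.49, SE 0.62, adjusted p = 4.18e-04). The exception was CXCL1, a neutrophil chemokine, at 0.560 ± 0.257 CPM in SK-N-SH and 30.0 ± 16.5 CPM in BON-1 (-5.72, SE 0.69, adjusted p = 5.40e-04). SK-N-SH vector 3 was more than 3-fold below both other libraries in 7 of 18 members of this list, CCL5 and IL6 among them, and it did not do so in both FL and dEx1 for any of them.

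The cell cycle list gave different counts depending on which libraries were used. Of 23 tested members 6 were higher in SK-N-SH and 1 lower with all libraries, 7 were higher and 8 lower without BON-1 vector 1, and 8 were higher and 14 lower without BON-1 vector 1 and SK-N-SH vector 3. MKI67, a marker of cycling cells, was at 124, 123 and 193 CPM in SK-N-SH and 118, 435 and 360.0 CPM in BON-1 (-1.04, SE 0.48, adjusted p = 0.105), and it passed without BON-1 vector 1 (-1.43, adjusted p = 0.00465). AURKA, a mitotic kinase, was at 47.1, 38.5 and 43.7 CPM in SK-N-SH and 22.6, 187 and 146 CPM in BON-1 (adjusted p = 0.108). BON-1 vector 1 was below the other BON-1 libraries in both, and with FL 13 of 23 members were lower in SK-N-SH and 5 higher. CCND1, cyclin D1, was at 2391 ± 234 CPM in SK-N-SH and 716 ± 164 CPM in BON-1 (1.77, SE 0.23, adjusted p = 7.58e-04), and CDK6, its kinase partner, at 262 ± 58.1 CPM and 67.9 ± 32.6 CPM (1.96, SE 0.43, adjusted p = 0.00701). CDKN1B, the inhibitor p27, was at 41.9 ± 11.3 CPM in SK-N-SH and 132 ± 18.4 CPM in BON-1 (-1.63, SE 0.24, adjusted p = 0.00139).

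Markers of other cell types were read for signs of cells that the labels do not name. Of the acinar, ductal and liver markers 10 were tested and all 10 were lower in SK-N-SH, with a floored median of -5.67 and a summed level of 4.26 to 8.32 CPM in SK-N-SH, against 677 to 2279 CPM in BON-1 and 5.44 to 6.31 CPM in QGP-1. APOB, the apolipoprotein of liver and gut, was at 0, 0.0591 and 0.147 CPM in SK-N-SH, against 744, 359 and 269.6 CPM in BON-1 (adjusted p = 7.55e-05). TTR, transthyretin, was at 0.209 ± 0.123 CPM in SK-N-SH and 119 ± 55.2 CPM in BON-1 (-9.12, SE 0.61, adjusted p = 5.15e-05). PRSS1, cationic trypsinogen, was at 0 in SK-N-SH, against 1257, 86.4 and 86.9 CPM in BON-1, at least 2851-fold lower (adjusted p = 0.00390), with counts that near-identical trypsinogens may share, and most of its mean rested on BON-1 vector 1. The part of other cells in these levels was not tested.

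AFP, the fetal liver protein alpha-fetoprotein, varied among BON-1 libraries, at 0.0310, 0 and 0.0226 CPM in SK-N-SH, against 1.99, 12.5 and 57.5 CPM in BON-1 (adjusted p = 0.00208). All BON-1 libraries lay above all SK-N-SH libraries.

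Markers of Schwann cells were at or near 0 in both lines for SOX10 and S100B. Of 7 tested haematopoietic and endothelial markers, CD68 and TEK were higher in SK-N-SH and HBA1 was lower. PTPRC, the leukocyte marker CD45, was at 0.600 ± 0.482 CPM in SK-N-SH and 0.0904 ± 0.0886 CPM in BON-1 (adjusted p = 0.104), and PECAM1, of endothelium, was at 0.705 ± 0.0783 CPM and 0.413 ± 0.185 CPM (adjusted p = 0.272). KDR, the endothelial VEGF receptor, was at 0 in SK-N-SH, against 137, 56.4 and 36.8 CPM in BON-1, at least 459.7-fold lower (adjusted p = 3.92e-04). HBA1, alpha globin, was at 0 in SK-N-SH and 84.6 ± 20.3 CPM in BON-1, at least 506-fold lower (adjusted p = 5.24e-05), and its near-identical copy HBA2 makes that count uncertain. PTPRC and PECAM1 were thus under 2 CPM in every library of both lines. The summed level of the list was 227 to 323 CPM in SK-N-SH and 128 to 186 CPM in BON-1, and the part of other cells in it was not tested.

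**Figure D5:**
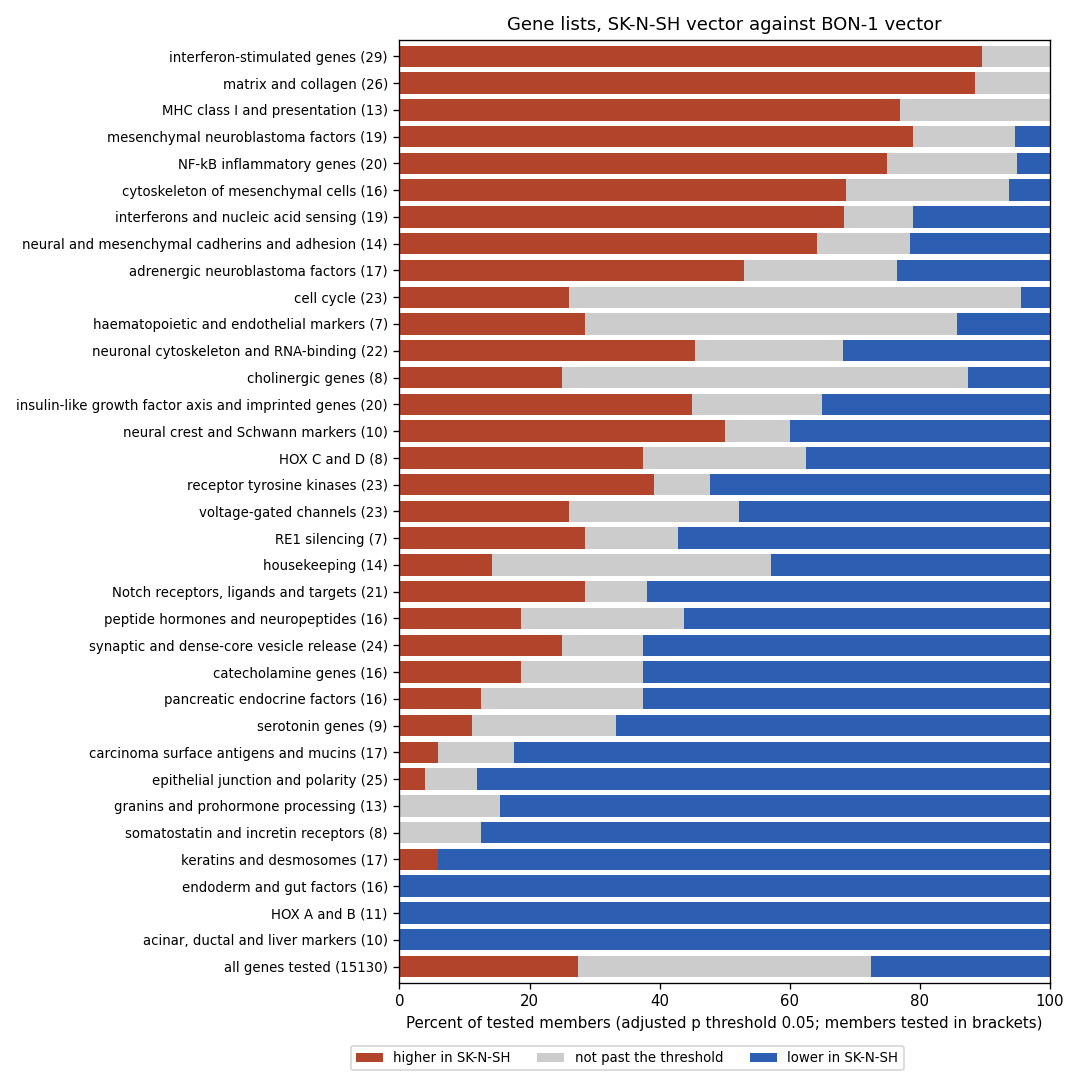
Percent of the tested members of each gene list described that were higher, not past the threshold or lower in SK-N-SH vector against BON-1 vector, with all 15130 tested genes for comparison. Over all genes 27.5% were higher and 27.5% lower, while the matrix, interferon-stimulated and mesenchymal neuroblastoma lists lay mostly on the higher side and the endoderm, HOX A and B, granin and epithelial lists on the lower side.

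Further lists were mixed. Of 10 tested neural crest and Schwann markers 5 were higher in SK-N-SH and 4 lower, with PAX3, MSX1, MSX2, ZIC1 and ETS1 on the SK-N-SH side and ERBB3, MITF and SOX9 among the lower ones. The call of SOX9 (-0.44, adjusted p = 0.0469) was lost under 9 alternatives, with adjusted p up to 0.368. Of 8 tested cholinergic genes 2 were higher and 1 lower, and of 7 tested genes of REST-mediated silencing 2 were higher and 4 lower. Of 14 tested adhesion genes of neural and mesenchymal cells 9 were higher and 3 lower, and NCAM1, the neural cell adhesion molecule, was at 196, 201 and 131 CPM in SK-N-SH, against 0, 0.160 and 0 CPM in BON-1 (adjusted p = 1.06e-04).

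Within each line some abundant genes varied widely between libraries. Among SK-N-SH genes with at least 50 CPM the largest spreads were in TUBA1C, an alpha tubulin, at 8.41, 10.3 and 276 CPM, KLHDC7B, ZNF768, MMP11, a metalloprotease, at 30.3, 30.7 and 239.6 CPM, and IER2, an immediate early gene, at 281, 35.1 and 40.8 CPM. The median SD of log2 CPM was 0.15 over SK-N-SH genes. In BON-1, where it was 0.27, the largest spreads were in AKR1B10, an aldo-keto reductase, at 4.06, 51.3 and 149 CPM, CSHL1, DUOX2, an oxidase of mucosal epithelium, at 6.27, 21.1 and 143 CPM, PRSS1, and MUC17, an intestinal mucin, at 12.8, 41.7 and 253 CPM. CSHL1 and the tubulin gene have near-identical relatives, which makes their counts uncertain. Housekeeping genes were not free of differences, with 2 of 14 higher and 6 lower in SK-N-SH: GAPDH was at 2805 ± 263 CPM in SK-N-SH and 4819.6 ± 524 CPM in BON-1 (-0.76, SE 0.20, adjusted p = 0.0173), and ACTB was at 4818, 4379.7 and 10336 CPM and 3801, 4294 and 5391 CPM and did not pass (adjusted p = 0.255).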

How the data were processed

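Poly(A) RNA of the 6 vector libraries was read beside 21 other libraries of the series. The deposited table holds estimated counts, whole numbers made by the authors for 23234 lines, of which 4 second lines of a repeated symbol were dropped. Per the submitters' processing notes, Trimmomatic, HISAT2 and StringTie were used on hg19; the step from StringTie to counts, the annotation and the use of strand are not given in the sources used here. Low values heap at 5 units (7317 values), so the worth of 1 unit in fragments is unknown and the p-values assume counting noise in those units.

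Genes were kept by edgeR's filterByExpr, scaled by TMM and tested with the quasi-likelihood test (edgeR 4.0.16, limma 3.58.1, R 4.3.3), SK-N-SH over BON-1, with Benjamini-Hochberg adjustment over all tested genes; every adjusted p in the text is from that test unless another is named. DESeq2 1.42.0 was an alternative. The steps were tested on simulated counts. CPM values were scaled by TMM over all 27 libraries. FL and dEx1 libraries were fitted the same way. Genes were named by a rule: the 15 largest and 15 smallest changes with at least 50 CPM, up to 4 members of each list per direction with at least 2 CPM, all members of the lineage, granin, monoamine and interferon-stimulated lists, and up to 2 that did not pass per list; other genes were chosen after their values were seen. The members and 35 lists were chosen with earlier results of these data known. Of 698 list symbols, 639 were in the table and the others were not analysed here. Several genes and 1 list are not reported here. Promoters are from RefSeq.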

Additional observations from a re-analysis of the deposited data

Results flagged for a closer look

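MAML3 was flagged because its difference between the lines ran in opposite directions in different transfections. The log2 fold change of SK-N-SH over BON-1 was 1.58 with FL and 1.36 with dEx1, against -1.60 with vector. The mean level with FL was 12018 CPM in SK-N-SH and 4042 CPM in BON-1, and with dEx1 it was 9369 CPM in SK-N-SH and 3662 CPM in BON-1. The difference between the transfections was not tested, and the construct delivered in FL and dEx1 is MAML3 itself, so plasmid and endogenous transcripts cannot be told apart in those libraries.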

How the results depend on the processing

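The number of genes past the threshold was 8332 and lay between 6823 and 10280 under the alternatives, within 1.5 times of it in each. Leaving out 1 library gave 6823 to 8915 genes, DESeq2 gave 8932, and a mean of at least 2 CPM gave 6994. Leaving out both SK-N-SH vector 3 and BON-1 vector 1, chosen after seeing the data, gave 9562. The 2-fold test gave 3674 to 5536 genes against 4821. Of 343 named genes tested, 274 passed. Of these, 253 passed under every alternative that gave a value, 21 were lost under some, and none reversed. Of the 69 that did not pass, 35 passed under some alternative.

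The replicate numbers do not pair the lines by these data: same-numbered libraries correlated at 0.10, -0.17 and 0.08 in their deviations from the group means. With a replicate block 7174 genes passed, and 4107 passed the 2-fold test. Each line has 3 libraries, and the depth in fragments is unknown, so a gene at 0 was not detected at this depth.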

Other observations

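These runs of genes were chosen after their values were seen. On hg19 chromosome 9, between 21802635 and 25678442, the genes MTAP, CDKN2A, CDKN2B and TUSC1 were at 0 in all BON-1 vector libraries. The stretch was not silent in BON-1: ELAVL2, a neuronal RNA-binding protein gene at 23690102 to 23826335, between CDKN2B and TUSC1, was at 1.15, 2.13 and 1.39 CPM in SK-N-SH and 7.20, 15.6 and 17.3 CPM in BON-1. It is left out of the run by the minimum of 2 CPM set for the other lines. MTAP, a methionine salvage enzyme, averaged 52.4 CPM in SK-N-SH vector and 0 CPM in BON-1 vector, with 43.9 CPM in QGP-1. CDKN2A, which encodes the inhibitor p16, averaged 35.4 CPM in SK-N-SH and 0 CPM in BON-1, and CDKN2B averaged 10.0 CPM in SK-N-SH and 0 CPM in BON-1. Nearby FOCAD averaged 38.2 CPM in SK-N-SH and 33.2 CPM in BON-1, and MLLT3 averaged 8.17 CPM in SK-N-SH and 90.3 CPM in BON-1. IFNB1, at 21077103 to 21077941 between FOCAD and MTAP, averaged 15.5 CPM in SK-N-SH and 0 CPM in BON-1 and in QGP-1. On chromosome 6, between 131949582 and 132216295, ENPP3, CTAGE9 and ENPP1 were at 0 in all SK-N-SH vector libraries. On chromosome 7, between 27145803 and 27211534, HOXA3, HOXA-AS3, HOXA7 and HOXA10-AS were at 0 in the same libraries. HOXA10, of the same cluster, was detected at low levels there, as given above. The copy number of these regions was not tested.

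The median log2 fold change of genes with at least 10 CPM in both lines lay between -0.45 on chromosome 20 and 0.39 on chromosome 17.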
